A study of Arabidopsis thaliana with 21 samples.

Results

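Compound A, an agent that the labels name only by its letter, was given alone to Arabidopsis thaliana seedlings, and the 4 arrays of that treatment were set against 4 arrays of seedlings given the solvent DMSO. These 8 arrays were chosen by their labels from 21 in the series, and all 22746 probe sets that are not array controls were compared. The seedlings were Col-0, a standard wild-type strain, grown in the light for 7 days in liquid culture in 0.5 strength MS medium with 1.5% sucrose, per the experiment records. Treatments lasted 1 h in all groups. Compound A was used at 10 µM, DMSO stood as the negative control, and the other groups used here were 5 µM indole-3-acetic acid (IAA, the main natural auxin, n = 4), IAA with 10 µM A (n = 3) and 10 µM of a compound B (n = 3). A further group of IAA with B (n = 3) entered only the estimate of spread and the list of values by array. Whole seedlings were measured, so a lower signal from fewer cells of one type and from less RNA per cell cannot be told apart.

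Plants meet foreign small molecules with a sequence of enzymes. Cytochromes P450 and oxidoreductases modify the molecule, glutathione transferases and UDP-glycosyltransferases attach glutathione or a sugar, and transporters move the conjugate into the vacuole or the wall. Reactive molecules that bind thiols also engage glutaredoxins and the chaperones of the heat shock response. Calcium sensors and fast transcription factors of the ERF and zinc finger families are induced within minutes by wounding, touch, cold and elicitors. Auxin, in contrast, acts through destruction of Aux/IAA repressors and raises the Aux/IAA, GH3 and SAUR genes quickly.

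The values are log2 signals. Array medians lay between 7.17 and 7.25, and values between 3.02 and 13.9. Pearson correlations between arrays ran from 0.978 to 0.990 within DMSO and from 0.983 to 0.996 within A, and no pair of the 21 arrays held the same values. A 2 and DMSO 4 stood apart from their groups. On the first component of the deviations from the group means, which held 32.0% of their variance, A 2 scored 36.0 and DMSO 4 scored -31.4, while the other A arrays scored from -13.9 to -8.12 and the other DMSO arrays from -3.61 to 24.9. Results that rest on these arrays are given with and without them. One experiment record, that of IAA 2, names compound B where the label names IAA. For GRX480, a gene raised by B, IAA 2 read 5.18, the other IAA arrays read 5.37 to 6.19 and the B arrays read 10.26 to 10.66, so the label was kept. Markers of both organs were present. The mean of 13 shoot markers lay between 11.55 and 11.63 in DMSO and between 11.54 and 11.69 in A. The mean of 7 root markers lay between 9.61 and 10.35 in DMSO and between 9.73 and 10.01 in A, and no marker of either list passed the test over the 8 arrays. Without A 2 and DMSO 4, 1 shoot marker, PSAN, was lower at -0.31.

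Compound A raised many transcripts strongly and lowered few by a large amount. At an adjusted p under 0.05 (limma, two-sided, Benjamini-Hochberg over all probe sets), 1240 probe sets were higher with A than with DMSO, 5.45% of those tested, and 669 were lower, 2.94%. At least 2-fold changes were far less even, with 487 higher (2.14%) and 23 lower (0.101%). The median difference of the 2-fold rises was 1.62 on the log2 scale, and that of the 2-fold falls was -1.17. All 4 A arrays lay above all 4 DMSO arrays for 454 of the 487 rises, and below them for 16 of the 23 falls. Over all probe sets, 1234 (5.43%) were higher and 862 (3.79%) lower in A with no overlap of the arrays. Of the 487 rises, 474 were also called without A 2 and DMSO 4, where the counts at 2-fold were 569 higher (2.5%) and 187 lower (0.822%). The count of falls therefore rested on these arrays to a degree that the count of rises did not. Only 241 of the 487 probe sets and 13 of the 23 are paired with 1 gene in the annotation used, and only those are named.

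The largest rise of a gene that could be named was GRX480, a CC-type glutaredoxin that binds TGA transcription factors. Its log2 signal was 5.78, 5.44, 5.44 and 5.82 in DMSO 1 to 4 and 10.43, 10.70, 10.01 and 10.30 in A 1 to 4. The groups lay far apart, and the difference was 4.74 ± 0.19 (SE), or 26.8-fold (adjusted p = 4.3e-13). It was the 1 member of 8 measured glutaredoxins and thioredoxins to rise, where 4.44% of all probe sets with 1 gene were higher and 3.06% lower. GRXC2, a general cytosolic glutaredoxin, was lower by a small amount at -0.29 ± 0.08 (adjusted p = 0.024), and the other 6 did not pass. None of 4 peroxide-scavenging enzymes passed, among them monodehydroascorbate reductase ATMDAR2 at 0.12 ± 0.09 and the mitochondrial peroxiredoxin PRXIIF at -0.05 ± 0.08.

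**Figure D1:**
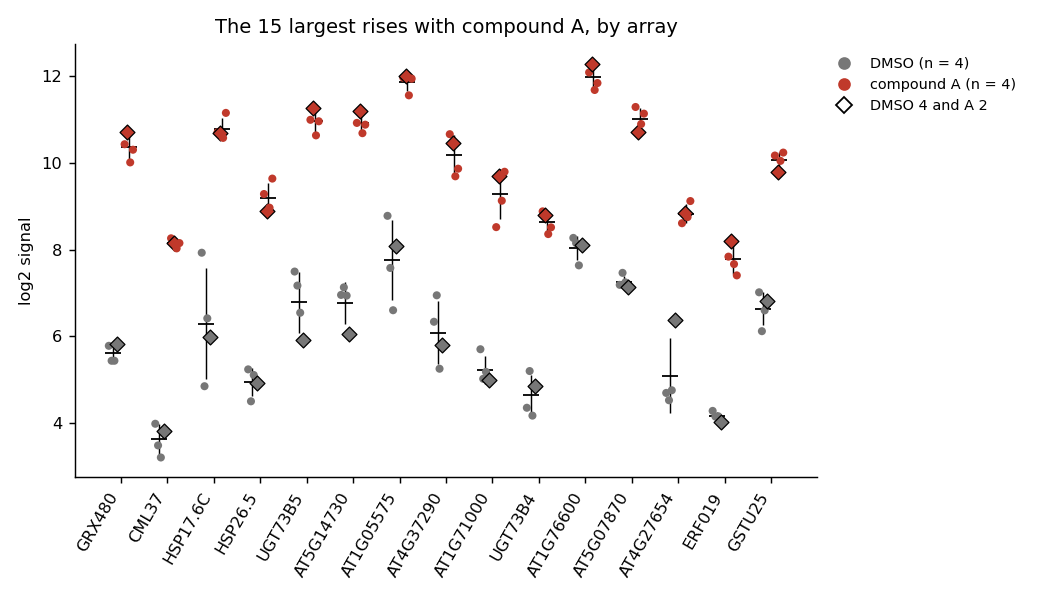
The log2 signal of the 15 largest rises of named genes is plotted by gene, with 1 point per array, DMSO in grey and compound A in red, group means as horizontal ticks and SD as vertical bars (n = 4). All 15 genes have every A array above every DMSO array. This includes the outlined diamonds of A 2 and DMSO 4.

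Of the enzymes that attach a sugar, 14 of 53 measured UDP-glycosyltransferases were higher and 2 lower, against 4.44% higher and 3.06% lower among the 13513 probe sets with 1 gene. UGT73B5 and UGT73B4, neighbouring genes of glucosyltransferases that act on small phenolics, rose most. UGT73B5 read 7.49, 7.17, 6.54 and 5.92 in the DMSO arrays and 10.99, 11.27, 10.63 and 10.96 in the A arrays. Its 18.1-fold difference (log2 4.18 ± 0.24, adjusted p = 1.2e-10) exceeded the spread within DMSO, where the arrays covered more than 1 log2 unit. UGT73B4 read 4.35, 5.20, 4.17 and 4.85 in DMSO and 8.88, 8.79, 8.36 and 8.51 with A, a 15.9-fold difference. UGT73B1 (AT4G34138), which lies on another chromosome, rose 5.25-fold (log2 2.39 ± 0.20). The members of the UGT73 family were counted after their values had been seen: 6 of 7 were higher, by log2 differences from 0.62 to 4.18, and UGT73C2 was not called at 0.07. GT72B1, which glucosylates chlorinated phenols and conjugates anilines, rose 2.85-fold (log2 1.51 ± 0.12). The median over the 53 members was 0.05, beside -0.02 over all probe sets, so most of the family stayed near the background.

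Glutathione transferases gave the same picture of few and large rises. Of 14 measured, 2 were higher and 1 lower, beside 4.44% and 3.06% of the probe sets with 1 gene. GSTU25, a tau-class enzyme, read 7.01, 6.12, 6.60 and 6.82 in DMSO and 10.17, 9.79, 10.04 and 10.24 with A. The groups did not overlap, and the difference was 10.7-fold (log2 3.42 ± 0.17, adjusted p = 9.1e-12). GSTU22 rose 6.15-fold, from 6.06 to 7.00 in the DMSO arrays to 8.68 to 9.82 in the A arrays. The other 12 of 14 measured members did not rise, and GSTU23 was lower at -0.41 ± 0.12 with overlapping arrays, a call that was lost without A 2 and DMSO 4 (adjusted p = 0.21). APS3, an ATP sulfurylase of the first step of sulfate assimilation, rose 2.66-fold (log2 1.41 ± 0.15, adjusted p = 7.9e-07), the 1 call among 4 measured genes of sulfur assimilation and glutathione.

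Oxidoreductases of reactive carbonyls were higher in 4 of 22 measured members and lower in none. AER, an NADPH-dependent alkenal reductase that removes the reactive double bond of unsaturated aldehydes, read 7.69, 8.04, 7.75 and 7.63 in DMSO and 9.43, 9.79, 9.43 and 9.89 with A (log2 1.86 ± 0.14, 3.63-fold). Its neighbour AT5G16980 rose 5.04-fold, and the aldo-keto reductase family genes AT1G60750 and AT1G60730 rose 6.36-fold and 2.50-fold. No array of these genes overlapped between the groups. Cytochromes P450, the usual first step, showed 1 higher and 2 lower of 23 measured, near the 4.44% and 3.06% of all probe sets with 1 gene. CYP78A9 was higher at 0.85 ± 0.14, CYP71B37 was lower at -0.53 ± 0.10 and CYP51G2 was lower at -0.27 ± 0.08. The CYP51G2 call was lost without A 2 and DMSO 4 (adjusted p = 0.11). Among transporters of conjugates, 8 of 29 measured were higher and none lower. The MATE family efflux genes AT1G33110 and AT1G61890 rose 3.01-fold and 2.30-fold, and AT5G65380 rose 1.81-fold. AT4G23030 was called at 0.89 ± 0.24, but A 2 was its highest array at 7.54 against 6.05 to 6.71 in the other A arrays, and the call was lost without A 2 and DMSO 4 (adjusted p = 0.081).

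Small heat shock proteins, which hold unfolding proteins in a refoldable state, were the list with the highest median: 8 of 9 measured members rose at least 2-fold, and the median log2 difference was 3.00. Over all probe sets tested, 2.14% were called at least 2-fold higher, and the median was -0.02. HSP17.6C (AT1G53540), a cytosolic class I member, read 7.93, 4.85, 6.41 and 5.97 in DMSO and 10.70, 10.69, 10.57 and 11.15 with A. The DMSO arrays were scattered over 3 log2 units and the A arrays over less than 1, and the 22.5-fold difference (log2 4.49 ± 0.47, adjusted p = 8.6e-07) stood above that scatter. HSP26.5 (AT1G52560) read 5.24, 4.50, 5.11 and 4.92 in DMSO and 9.28, 8.89, 8.96 and 9.64 with A, or 19-fold. HSP17.6B rose 10.0-fold and HSP17.4-CIII 9.31-fold. The remaining member, HSP15.4, was not called at -0.13.

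Larger chaperones and their partners were higher in 8 of 13 measured members and lower in none, with a median of 0.77. The shares among all probe sets with 1 gene were 4.44% higher and 3.06% lower. AT1G71000, which encodes a DnaJ-domain protein, read 5.70, 5.02, 5.18 and 5.00 in DMSO and 8.52, 9.68, 9.13 and 9.79 with A (16.6-fold). Fes1A, a nucleotide exchange partner of HSP70, read 8.04, 7.93, 8.32 and 7.96 in DMSO and 11.50, 11.50, 11.25 and 11.25 with A. The arrays were tight within both groups, and the difference was 9.92-fold (log2 3.31 ± 0.15, adjusted p = 3.3e-12). Hop3, which links HSP70 to HSP90, rose 9.92-fold as well (log2 3.31 ± 0.26), and the DnaJ gene AT2G20560 rose 7.08-fold. Of the 5 members not called, 3 were co-chaperones of the endoplasmic reticulum, namely ATERDJ3B at 0.05, ATERDJ2B at 0.05 and ATERDJ2A at -0.10. In the list of folding in that compartment, 1 of 5 was higher and 1 lower. BZIP28, a membrane-bound factor of the unfolded protein response, rose by 0.54 ± 0.08, and the disulfide isomerase PDIL5-1 was lower at -0.40 ± 0.07. None of 8 proteasome subunits passed, with RPN12a at 0.00 ± 0.09 and RPN7 at 0.01 ± 0.08, although RPN2A was higher without A 2 and DMSO 4 (adjusted p = 0.0097).

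**Figure D2:**
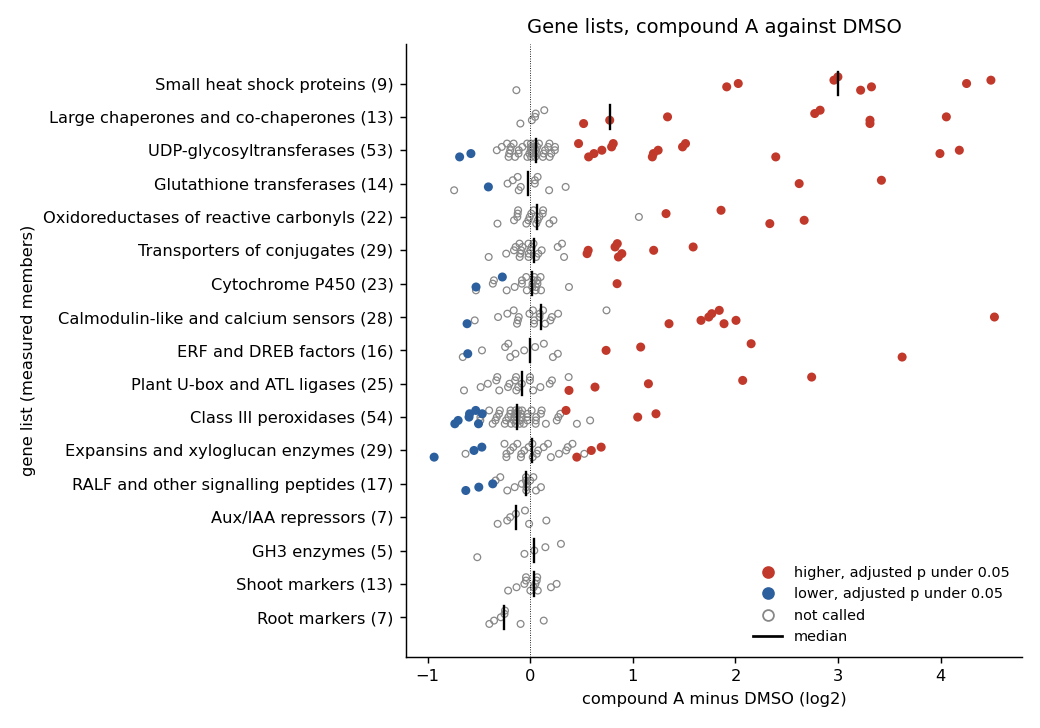
Each point is the log2 difference of 1 measured gene, compound A minus DMSO, arranged by gene list with the number of measured members in brackets, filled red where higher and blue where lower at an adjusted p under 0.05 and open where not called. The black bars are list medians, 3.00 for the small heat shock proteins, 0.77 for the larger chaperones and between -0.25 and 0.11 for the other lists drawn.

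Calcium sensors formed a further group: 8 of 28 measured calmodulin-like and related genes were higher, each at least 2-fold, and 1 was lower. Among all probe sets with 1 gene, 4.44% were higher and 3.06% lower. CML37 read 3.98, 3.48, 3.21 and 3.81 in DMSO, near the lower end of the signal range, and 8.26, 8.14, 8.03 and 8.15 with A. This 23-fold difference (log2 4.52 ± 0.17, adjusted p = 1.9e-13) was the second largest of a named gene. CML40 rose 4.01-fold, CML38 3.70-fold and CML46 3.59-fold, all from DMSO arrays that varied by more than 1 log2 unit. The CML46 call was lost when only the 8 arrays were fitted. Calcium pumps and channels gave no call among 8 measured, and a list this short can hold no call at those shares. The glutamate receptor-like channels GLR3.3 and GLR3.6 were at 0.12 ± 0.14 and 0.08 ± 0.10.

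Fast transcription factors rose in the same arrays. ERF019 (AT1G22810), of the AP2/ERF family, read 4.28, 4.15, 4.16 and 4.02 in DMSO and 7.84, 8.20, 7.66 and 7.40 with A (12.3-fold, log2 3.62 ± 0.12, adjusted p = 3.0e-14). ERF112 rose 4.45-fold and ERF017 2.11-fold. In all, 4 of 16 measured ERF and DREB genes were higher and 1 lower. For this list and the next ones, the shares among all probe sets with 1 gene were 4.44% higher and 3.06% lower. ORA47, a factor of jasmonate synthesis, was the weakest of the 4 at 0.74 ± 0.22 (adjusted p = 0.047), and DMSO 4 at 5.88 lay above A 1 at 5.76. Zinc finger genes of stress were higher in 3 of 6. STZ, the repressor also known as ZAT10, read 9.41, 8.39, 7.23 and 8.97 in DMSO and 11.52, 11.61, 11.34 and 11.31 with A (7.70-fold), AT2G28710 rose 3.85-fold and ZAT18 3.07-fold. WRKY6, linked to senescence and defence, was the 1 call among 7 measured WRKY genes at 6.13-fold (log2 2.61 ± 0.21). The MAP kinase ATMPK13 was lower at -0.51 ± 0.13 (adjusted p = 0.016).

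The U-box ubiquitin ligases PUB22, PUB23 and PUB24, which together damp immune signalling, all rose. PUB24 read 7.65, 7.25, 6.32 and 6.31 in DMSO and 9.94, 10.07, 9.31 and 9.16 with A, a 6.69-fold difference, while PUB23 rose 4.20-fold and PUB22 2.22-fold. ATL80, a RING-type ligase, was higher at 0.63 ± 0.16 with overlapping arrays. The list as a whole had 5 of 25 higher and none lower. Hormone lists were short and gave few calls, beside 4.44% of the probe sets with 1 gene that were higher and 3.06% lower. None of 3 measured jasmonate genes, 2 ethylene genes, 4 genes of abscisic acid and cold, 6 cytokinin genes or the 1 measured defence gene SAG101 passed, with MYC3 at 0.02 ± 0.07, MYC4 at -0.09 ± 0.19, EIN3 at -0.03 ± 0.07, ACO3 at 0.02 ± 0.25, COR47 at -0.33 ± 0.15 and LTI30 at 0.52 ± 0.30. Of these, SAG101 was lower without A 2 and DMSO 4, at -0.52 (adjusted p = 0.015) beside -0.33 ± 0.14 over all 8 arrays, with A 2 its highest A array at 6.78. The cytokinin response regulator RR16 likewise went from -0.49 to -0.69 (adjusted p = 0.021). The gibberellin receptor GID1A was lower at -0.56 ± 0.17 (adjusted p = 0.043), with overlapping arrays.

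Other large rises had no list. AT5G07870, of the acyltransferase family that modifies phenolics, rose 13.5-fold from 7.14 to 7.46 in DMSO to 10.72 to 11.29 with A. AT1G76600 rose 15.2-fold (log2 3.93 ± 0.13), AT1G05575 17.2-fold and AT4G27654 13.4-fold, and AT5G14730 and AT4G37290 by log2 differences of 4.15 ± 0.18 and 4.08 ± 0.27. In AT4G27654 the DMSO 4 array, at 6.37, stood above the other DMSO arrays at 4.53 to 4.76, and still below every A array. CCR2, the cinnamoyl-CoA reductase AT1G80820 of the lignin branch, read 5.71, 6.0, 5.47 and 5.72 in DMSO and 9.24, 8.62, 8.93 and 8.85 with A (9.11-fold, log2 3.19 ± 0.13). It was the 1 call among 6 measured phenylpropanoid genes, where 4.44% of all probe sets with 1 gene were higher. Averaged over the 15 largest rises, A 2 was at 10.11, just above the other A arrays at 9.78 to 10.06. DMSO 4 was at 5.91, within the 5.68 to 6.27 of the other DMSO arrays. These means hide deviations both ways in single genes. A 2 was above the other A arrays for ERF019 (8.20 beside 7.40 to 7.84) and below them for GSTU25 (9.79 beside 10.04 to 10.24). DMSO 4 was below the other DMSO arrays for AT5G14730 (6.05 beside 6.94 to 7.13). The 15 genes were picked as called with and without both arrays.

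The falls were smaller. AT1G48330 read 6.85, 5.65, 6.11 and 5.78 in DMSO and 4.38, 5.06, 4.52 and 4.54 with A, a 2.78-fold lower signal (log2 -1.47 ± 0.25, adjusted p = 0.00036), and the groups did not overlap. AT5G50010 gave the smallest error among the 2-fold falls of named genes, with 7.15, 6.71, 7.11 and 7.24 in DMSO and 5.89, 6.0, 6.01 and 6.12 with A (log2 -1.05 ± 0.11, adjusted p = 7.8e-07). AT4G22610, of the lipid transfer protein family, was 2.71-fold lower, although DMSO 2 at 9.30 fell inside the range of the A arrays. Further falls without overlap were AT1G64405 at -1.17 ± 0.22, AT2G21560 at -1.14 ± 0.18, AT3G20340 at -1.12 ± 0.17, AT1G54890 at -1.01 ± 0.19, AT1G76240 at -0.98 ± 0.13 and AT3G42800 at -0.97 ± 0.17. PRN, the cupin protein pirin, was lower at -0.98 ± 0.22, with DMSO 2 at 7.90 inside the A range.

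**Figure D3:**
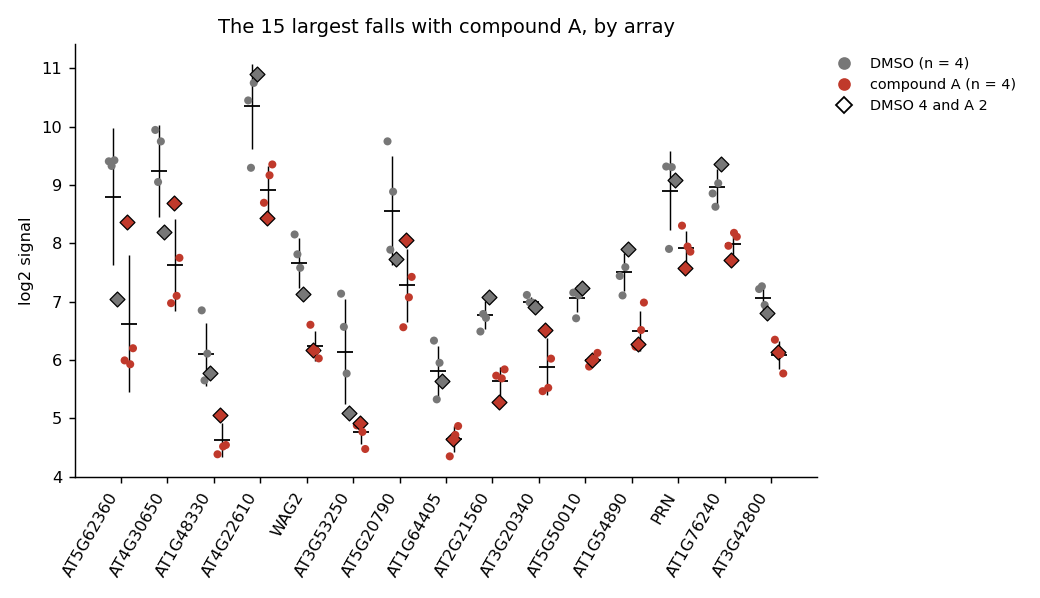
The log2 signal of the 15 largest falls of named genes is plotted by gene and array as in the plot of the largest rises (DMSO grey, compound A red, mean and SD, n = 4). For AT5G62360, AT4G30650 and AT5G20790 the outlined diamonds of A 2 and DMSO 4 cross, with A 2 above DMSO 4.

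Of the 15 largest falls, 3 crossed in this way. AT5G62360, of the pectin methylesterase inhibitor family, read 9.41, 9.33, 9.43 and 7.05 in DMSO and 5.99, 8.37, 5.93 and 6.20 with A. The difference was -2.18 ± 0.58 over all 8 arrays (adjusted p = 0.022) and -3.35 ± 0.43 without A 2 and DMSO 4 (adjusted p = 2.6e-05). AT4G30650, of a family of small membrane proteins responsive to cold and salt, went from -1.61 to -2.31, and AT5G20790 from -1.29 to -1.82. Leaving out A 1, A 3, A 4, DMSO 1 or DMSO 3 instead ended the call of each of these genes, as did fitting only the 8 arrays. A wider set of genes behaved alike. The 12 genes with 1 gene per probe set on which A 2 lay farthest above the other A arrays and DMSO 4 farthest below the other DMSO arrays were picked for that pattern, so their differences are given with no test. Their mean signal was 9.17, 9.54, 9.15 and 6.80 in DMSO 1 to 4 and 6.75, 9.06, 6.64 and 6.90 in A 1 to 4.

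The 12 include CCL, a transcript named for its circadian control, PORB, an enzyme of chlorophyll synthesis, and COR27 and COR28, genes regulated by light and the clock. COR27 read 6.57, 7.35, 6.40 and 4.20 in DMSO and 4.48, 6.35, 4.44 and 4.26 with A. CCL read 11.41, 12.21, 11.60 and 9.13 in DMSO and 8.46, 11.70, 8.05 and 8.87 with A. Outside these groups, the mean of the 12 was 8.94 to 9.25 in the IAA arrays, 7.77, 7.67 and 6.59 in IAA with A, 8.15, 9.12 and 8.96 in B, and 6.59, 9.17 and 9.05 in IAA with B. DMSO 4, A 1, A 3, A 4 and B 1 lay below the lowest IAA array, at 8.94. So did all 3 arrays of IAA with A and array 1 of IAA with B. By that cut no IAA array could be among them, and their means ran from 6.59 to 8.15. The records hold no harvest time or scan date, so a part played by the handling of single arrays was not tested. In the list of clock and light genes, none of 4 passed over the 8 arrays (median -0.89) and all 4 were lower without A 2 and DMSO 4 (median -1.95), where 9.49% of all probe sets were lower. GI, the clock protein GIGANTEA, was at -0.53 ± 0.33 in the first comparison and at -1.05 in the second. COR27 and COR28 belong to this list and also to the 12 genes picked on A 2 and DMSO 4. Their larger falls without those arrays follow from that pick.

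**Figure D4:**
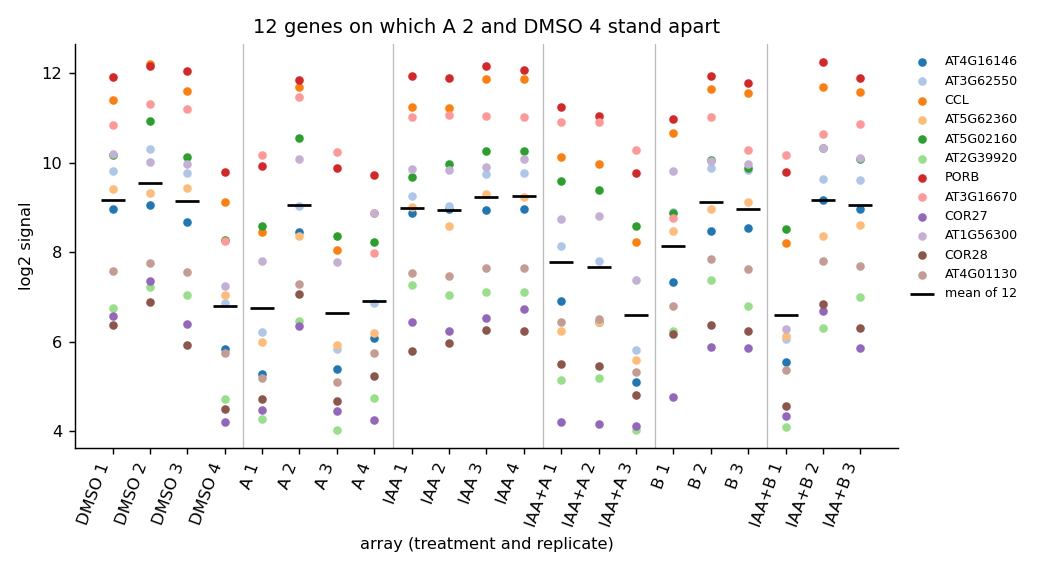
The log2 signal of the 12 genes on which A 2 and DMSO 4 stand apart is plotted for all 21 arrays, ordered by treatment, with 1 colour per gene and a black bar for the mean of the 12. The mean is 6.80 in DMSO 4 and 9.06 in A 2, while the other DMSO arrays are at 9.15 to 9.54 and the other A arrays at 6.64 to 6.90.

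The measured Aux/IAA and GH3 genes gave no call with A alone, beside 4.44% of the probe sets with 1 gene that were higher and 3.06% lower. Lists this short can hold no call at those shares. The SAUR list held 1 fall, given below. None of 7 measured Aux/IAA genes passed: IAA18 was at -0.01 ± 0.09, IAA20 at -0.14 ± 0.13, IAA29 at -0.32 ± 0.22, IAA30 at 0.16 ± 0.17, IAA31 at -0.20 ± 0.12, IAA33 at -0.22 ± 0.09 and IAA34 at -0.05 ± 0.13. None of 5 measured GH3 genes, whose enzymes join auxin to amino acids, passed either. GH3.3 was at 0.04 ± 0.12, WES1 (GH3.5) at -0.06 ± 0.17, GH3.1 at 0.15 ± 0.19, GH3.9 at 0.30 ± 0.11 and GH3.17 at -0.52 ± 0.20. GH3.9 was the exception without A 2 and DMSO 4, where it was higher at 0.38 (adjusted p = 0.023). HAT2 was at -0.46 ± 0.15 (adjusted p = 0.069) and LBD16 at -0.15 ± 0.16. Many well-known members of these families are not among the probe sets named here. Outside the families, some genes that IAA raised were also higher with A, and both comparisons share the DMSO arrays. IAA against DMSO gave 1.41 ± 0.27 for AT4G37290 (adjusted p = 0.0054), 1.54 ± 0.15 for AT4G37295 (adjusted p = 1.1e-06) and 0.58 ± 0.09 for AT5G64250 (adjusted p = 0.00073). A alone gave 4.08, 0.96 and 2.44 for the same genes. Other genes that IAA raised were lower with A. IAA against DMSO gave 2.06 ± 0.22 for AT1G64405 (adjusted p = 6.3e-06) and 1.53 ± 0.17 for AT3G42800 (adjusted p = 1.3e-05). For these, A alone gave -1.17 and -0.97. The genes of both kinds were picked for description after their values were seen, and their relation to auxin was not tested.

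Genes linked to auxin transport and metabolism moved both ways. WAG2, a kinase that phosphorylates PIN auxin efflux carriers, read 8.15, 7.81, 7.58 and 7.12 in DMSO and 6.60, 6.17, 6.16 and 6.03 with A. The groups did not overlap, and the signal was 2.69-fold lower (log2 -1.43 ± 0.24, adjusted p = 0.00032). AT3G53250, a SAUR gene, read 7.14, 6.57, 5.77 and 5.10 in DMSO and 4.88, 4.92, 4.77 and 4.47 with A (log2 -1.38 ± 0.33, adjusted p = 0.010). Its DMSO arrays were spread over 2 log2 units, and the call was lost when only the 8 arrays were fitted (adjusted p = 0.080). The other member of the transport list and the other 2 of the SAUR list did not pass. Sugar-transfer enzymes that act on IAA were higher. IAGLU (AT4G15550), indole-3-acetate glucosyltransferase, read 9.39, 9.33, 8.88 and 8.91 in DMSO and 11.04, 11.16, 10.98 and 11.53 with A. The groups did not overlap, and the difference was 2.05 ± 0.14 (adjusted p = 1.6e-09), with 1.90 in the presence of IAA. UGT74D1, which glucosylates auxins and their oxidised forms, was higher at 1.48 ± 0.22 (adjusted p = 0.0001). Both were chosen after their values were seen, and IAGLU stands outside the glycosyltransferase list, which went by symbols that start with UGT or by locus.

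Cell wall genes moved both ways, and of those called only 2, both peroxidases, changed at least 2-fold. Of 29 measured expansins and xyloglucan enzymes, 3 were higher and 3 lower. EXPB1 was lower at -0.94 ± 0.17 and EXPA15 at -0.55 ± 0.12, while the expansin-like genes EXLA1 and EXLA3 were higher at 0.69 ± 0.19 and 0.60 ± 0.10. CSLC04, a glucan synthase of the xyloglucan backbone, was higher at 0.60 ± 0.09 (adjusted p = 9.9e-05). Class III peroxidases, secreted enzymes that cross-link or loosen walls, were lower in 7 of 54 and higher in 3, beside 3.06% and 4.44% of the probe sets with 1 gene. The share of higher members was thus near that background. Without A 2 and DMSO 4, 12 were lower and 3 higher. AT3G21770 was lower at -0.73 ± 0.14 and AT3G01190 at -0.70 ± 0.16, and AT4G33420 was higher at 1.05 ± 0.19. AT1G49570 was called at 1.23 ± 0.33, with its highest value in A 2 at 9.73, and lost the call without A 2 and DMSO 4 (adjusted p = 0.088). RALF and related signalling peptides were lower in 3 of 17, namely RALFL27 at -0.63 ± 0.17, RALFL24 at -0.50 ± 0.11 and RALFL34 at -0.36 ± 0.07, and none was higher. RALFL27 too was not called without the pair of arrays (adjusted p = 0.081).

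Housekeeping lists gave few calls over the 8 arrays. None of 16 ribosomal proteins, mostly organelle-encoded, and none of 10 cell cycle and histone genes passed, with HTB4 at 0.01 ± 0.06 and HTB11 at -0.29 ± 0.10. The tubulin TUB9 was lower at -0.33 ± 0.10 (adjusted p = 0.048), and PEX4, often used as a reference transcript, was lower at -0.33 ± 0.10 (adjusted p = 0.038). Without A 2 and DMSO 4, where 9.09% of all probe sets were higher and 9.49% lower, more members were called. The plastid ribosomal genes rps2, rpl22 and rps16 were then higher, by 0.62, 0.63 and 0.52, and the median of the ribosomal list went from 0.24 to 0.40. HBT at -0.25 and HTB11 at -0.39 were lower, as were TUB5 at -0.98, TUB6 at -0.46, TUB9 at -0.47 and PEX4 at -0.44, and ACT11 was higher at 0.52. RCA, the activase of Rubisco, was at 0.00 ± 0.06, and PYK10, a root glucosidase, was at -0.09 ± 0.07. No call was made among 4 glucosinolate genes or in the 1 measured gene of tryptophan synthesis, IGPS, at -0.24 ± 0.13. Of 89 named and called genes, 24 were not called when only the 8 arrays were fitted. Among them were EXPA15 (adjusted p = 0.080), AT3G21770 (0.067), RALFL24 (0.081), PRN (0.14) and CYP71B37 (0.053), which kept their calls with any single array left out. Several narrow calls given above rested on single arrays. Those of CYP51G2, GSTU23, AT4G23030, GRXC2, ATL80, ORA47, ATMPK13, GID1A, EXLA1, AT1G49570, RALFL27, TUB9 and PEX4 each ended when any of 2 to 7 of the 8 arrays was left out. DMSO 3 was such an array for all of them except ATL80, which was lost without A 1 or DMSO 2. A 1 was one for all except ORA47, ATMPK13 and EXLA1, and A 4 was one for these 3 and for CYP51G2, GID1A, TUB9 and PEX4. A 3 was one for all except AT4G23030, ATL80, ATMPK13 and AT1G49570.

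The effect of A was measured a second time in arrays that share none with the first, as IAA with A (n = 3) against IAA (n = 4). Both comparisons used the same estimate of spread for each probe set, so their calls are not independent. With IAA present, 1088 probe sets were higher with A (4.78%) and 977 lower (4.3%). All 487 of the 2-fold rises with A alone were also higher in the presence of IAA, and 459 of them (94.3%) were called. Their median difference was 1.55 there, beside 1.62 with A alone. Of the 23 falls, 22 were lower in the presence of IAA and 13 (56.5%) were called, with a median of -0.97. On the 12 genes picked above, the IAA arrays averaged 8.94 to 9.25 and the arrays of IAA with A 6.59 to 7.77. For falls with the pattern of those 12 genes, such as AT5G62360, a repeat cannot be told apart from this difference between arrays. Over all 22746 probe sets, which are not independent, Pearson's r between the differences was 0.88 and Spearman's rho 0.63. GRX480 read 6.19, 5.18, 5.37 and 5.38 with IAA and 10.22, 10.43 and 9.94 with IAA and A, a difference of 4.66 beside 4.74 without IAA. All 8 small heat shock proteins, all 8 chaperones and the 8 risen calcium sensors were called again in the same direction, as were 12 of the 16 called glycosyltransferases, 5 of the 8 transporters and 4 of the 10 called peroxidases. Over all called probe sets, 69.6% of the 1240 higher and 36.8% of the 669 lower were called again in the same direction. WAG2 and AT3G53250 were not called again, at -0.74 (adjusted p = 0.078) and -0.97 (adjusted p = 0.10).

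**Figure D5:**
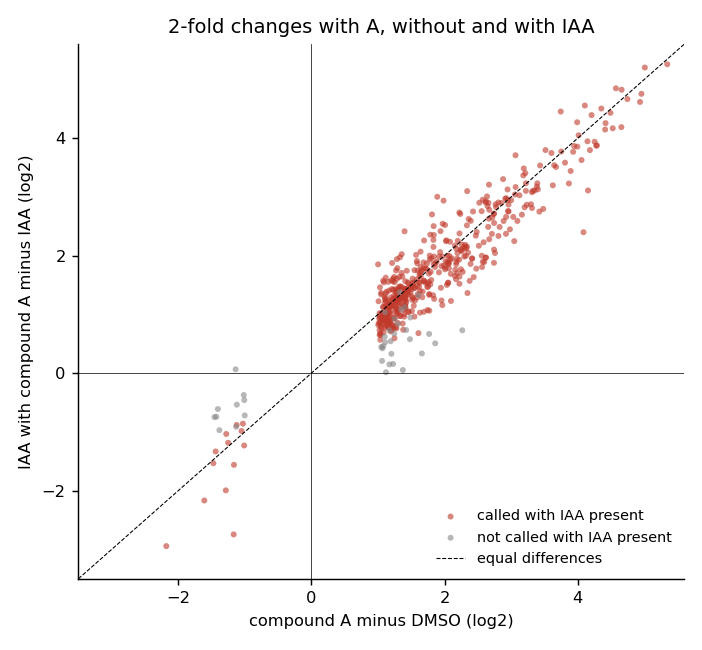
For the 510 probe sets changed at least 2-fold by compound A alone, the log2 difference with A alone (horizontal) is plotted against the log2 difference made by A in the presence of IAA (vertical), in red where the latter was called and in grey where it was not. The points follow the dashed line of equal differences, with medians of 1.62 and 1.55 for the 487 rises and of -1.17 and -0.97 for the 23 falls.

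The difference between both effects of A was tested as an interaction, which called 11 probe sets (0.0484%). Among the 487 rises, 1 carried such a difference. This was AT5G64250, an enzyme of the nitronate monooxygenase family, which read 9.07, 9.13, 8.94 and 9.10 in DMSO, 11.63, 11.57, 11.26 and 11.52 with A, 9.48 to 9.76 with IAA and 11.15 to 11.37 with both. A raised it by 2.44 alone and by 1.63 with IAA (interaction -0.80 ± 0.13, adjusted p = 0.027). AT4G37295 rose by 0.96 with A alone and was at -0.48 with IAA, which itself had raised the level (interaction -1.43 ± 0.22, adjusted p = 0.012). AT3G09280 was at 0.39 and -1.02 (interaction -1.40 ± 0.17, adjusted p = 0.0012), although its call with A alone was narrow, at an adjusted p of 0.048, and was lost without A 1, A 3, A 4, DMSO 2, DMSO 3 or DMSO 4. AT3G21680 was lower with A at -0.75 and at -0.09 with IAA present, where IAA alone had brought it to 3.98 to 4.37 from 4.75 to 5.00 in DMSO (interaction 0.66 ± 0.12, adjusted p = 0.041).

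Compound B was given at the same dose of 10 µM for the same 1 h, so A and B were compared directly, as 1 pair of compounds. Between them 962 probe sets were higher with A (4.23%) and 486 lower (2.14%). Of the 487 rises with A, 158 were higher with A than with B, 22 were lower and 307 were not called. The rises were picked for high values in the same A arrays, which tilts this split towards A above B. For several of the largest rises no difference between the compounds was called. GRX480 read 10.66, 10.39 and 10.26 with B, and A minus B was -0.08 (95% interval -0.50 to 0.35). UGT73B4 was at -0.09 (-0.53 to 0.34), UGT73B5 at 0.27 (-0.27 to 0.82) and AER at -0.08 (-0.41 to 0.24). None of these 4 differences was called, and the intervals leave room for a difference of 0.82 in UGT73B5. Other members of the gene lists did differ, beside 4.23% of all probe sets higher with A than with B and 2.14% lower. Of the 22 carbonyl oxidoreductases, 1 was higher with A than with B, AT1G60730 by 0.68 (adjusted p = 0.025), and none was lower. That list was thus near the share over all probe sets. APS3 was higher with A by 0.62 (adjusted p = 0.025), and of the 53 glycosyltransferases 4 were higher with A and none lower. Of the 9 small heat shock proteins, 2 were higher with A and none lower, with a median of 0.90. These were HSP17.4-CIII by 0.93 (adjusted p = 0.029) and HSP18.5 by 0.90 (adjusted p = 0.0056). HSP17.6C was at 1.70 (95% interval 0.64 to 2.76, adjusted p = 0.051) and HSP26.5 at -0.06 (-0.65 to 0.54), neither of them called. Both glutathione transferases were higher with B, with A minus B at -0.77 for GSTU25 (adjusted p = 0.014) and -0.99 for GSTU22 (adjusted p = 0.015).

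ERF019 separated the compounds most among the 15 largest rises. It read 4.46, 4.56 and 4.59 with B and 7.40 to 8.20 with A, a difference of 3.24 (95% interval 2.98 to 3.50, adjusted p = 5.9e-12). AT1G71000 was higher with A by 2.57 (adjusted p = 2.0e-05), Hop3 by 1.71 (adjusted p = 0.0012), Fes1A by 1.42 (adjusted p = 3.3e-05), CCR2 by 1.12 (adjusted p = 9.3e-05), ZAT18 by 1.69 (adjusted p = 0.00075), ERF112 by 1.43 (adjusted p = 0.00051) and BZIP28 by 0.59 (adjusted p = 0.00019). For ZAT18 the B arrays, at 4.07 to 4.22, lay in the range of the DMSO arrays, at 3.99 to 4.43. Expansin-like EXLA3 was lower with A than with B by -0.88 (adjusted p = 4.4e-05). Over the 15 largest rises, 3 were called higher with A, 1 lower and 11 were not called, and over the 15 largest falls 2 were called lower with A than with B and 13 were not called. Both sets were picked by the same A arrays, which tilts the rises towards A above B and the falls towards A below B.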

How the data were processed

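The authors deposited 1 log2 signal per probe set and array on ATH1 arrays, per the series table, and the method behind these values is not given here. Of 22810 probe sets, 64 controls were left out. The annotation table pairs 13513 tested probe sets with 1 gene, 503 with several and 8730 with none. Symbols came from the RefSeq gene table (assembly TAIR10.1), and list members without a symbol were placed by background knowledge of their locus numbers. In limma 3.58.1 (R 4.3.3), every array entered a single model that gives each of the treatments its own mean, with variances moderated along mean intensity, and p-values were adjusted by the Benjamini-Hochberg method over 22746 probe sets at 0.05. Errors are SE from this fit. The fit was tested on simulated data. The labels do not say whether arrays came from separate cultures, so p-values may measure technical spread, and the number of arrays limits precision.

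Lists and comparisons were chosen with earlier results of these data known. Of 48 lists, 45 had measured members. Named were the 15 largest rises and 15 largest falls called both with and without A 2 and DMSO 4, up to 4 called members of each list by size (or 2 by signal where none was called), every Aux/IAA and GH3 member, and up to 6 interaction genes called with A alone. Other genes named (UGT73C2, IAGLU, UGT74D1, HSP15.4, HSP18.5, the ATERDJ genes, CCL, PORB, COR27, PSAN, RPN2A, HBT, ACT11, TUB5, TUB6, rps2, rpl22 and rps16) were chosen after their values were seen. A planned search of promoter motifs was not run.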

Additional observations from a re-analysis of the deposited data

Results flagged for a closer look

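Among the named genes, 1 array lay far from the other 3 of its group in 16 of 264 groups of 4, and chance alone gives about 1 in 20 groups. In DMSO 4 these were AT4G27654 at 6.37, AT5G62360 at 7.05, AT1G61890 at 9.21, BZIP28 at 8.75, ORA47 at 5.88 and UGT74B1 at 11.20. In A 2 they were AT5G62360 at 8.37, SAG101 at 6.78 and GH3.17 at 8.38. The others were AT1G05575 in A 3 at 11.56, HSP17.4-CIII in A 4 at 11.50, RR16 in A 4 at 5.98, JAL34 in A 1 at 12.06, PRN in DMSO 2 at 7.90, PDIL5-1 in DMSO 1 at 9.21 and ATMPK13 in DMSO 3 at 5.99. Thus 9 of the 16 were values of DMSO 4 or A 2.

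The effect of A differed with and without IAA, by the interaction test, for 11 probe sets. Besides AT5G64250 at -0.80, AT4G37295 at -1.43, AT3G09280 at -1.40 and AT3G21680 at 0.66, these were LBD29 at -2.70, AT2G28690 at -1.34, AT5G51380 at -0.72 and 4 probe sets not paired with 1 gene, at -2.49, -1.20, -0.95 and -0.86. LBD29, a factor of lateral root formation, read 9.53 to 10.65 with IAA, 6.64 to 7.15 with IAA and A, 5.56 to 6.38 with DMSO and 5.32 to 5.75 with A.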

How the results depend on the processing

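The 2-fold rises were stable, between 416 and 576 under all other settings tried, and the falls were not. The counts of higher and lower probe sets were 2067 and 2159 without A 2 and DMSO 4 (4226 in all), 1984 and 2064 without DMSO 2, DMSO 4, A 2 and IAA with B 1 (4048), 752 and 129 with only the 8 arrays fitted (881), and 1120 in all with 221 lower at an adjusted p of 0.01. Array weights gave 3678 in all and 1865 lower. Falls of at least 2-fold numbered 23, and 187, 195, 15, 15 and 138 under these in turn. An alternative chosen after seeing the data, the 8 arrays alone without A 2 and DMSO 4, gave 175. Quantile scaling gave 1208 higher and 965 lower. IAA with A against IAA called 6670 with weights, 4661 with its own arrays alone and 3758 without the 4 arrays. A against B called 3310, 602 and 2771 under the same, and the interaction 21, 6 and 5, with 5 in the brighter 60% of probe sets. The causes were not tested. Leaving out each array in turn gave 1413 to 2992 calls for A against DMSO, 1017 to 1620 higher, 396 to 1372 lower, 448 to 514 at least 2-fold higher and 15 to 103 lower, with 1225 to 2467 for IAA with A, 5 to 26 for the interaction and 485 to 1776 for A against B. Falls were 1372 without A 2, 1181 without DMSO 4, 396 without DMSO 3, 402 without A 1 and 411 without A 3. Without IAA 2, 578 were lower. Of 89 named and called genes, 62 kept their call under all of up to 17 alternatives, 27 lost it under at least 1 and none reversed. Of 43 named and not called, 10 passed under at least 1. The scan dates are empty, so the planned batch block was not run.

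Deviations of same-numbered A and DMSO arrays correlated at -0.06, 0.40, 0.24 and 0.54. Whether equal numbers mark paired arrays was not tested, and the main fit left the numbers out. With the replicate number as a block, A against DMSO called 2123, 1329 higher and 794 lower, with 494 and 29 at 2-fold, and the interaction called 19.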
